A study of Homo sapiens with 30 samples.

Results

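Interferon-stimulated genes were followed across SUM190 cells, a line long grown in culture from an inflammatory breast carcinoma, and its derivatives with acquired resistance to doxorubicin or to paclitaxel. The list held 47 gene symbols, and all 47 were rows of the expression table. A gene was kept if it reached 1 CPM (read counts scaled to a common library size) in at least 2 libraries, which left 45 of the 47, among 12743 genes kept of 20114 in the table. Polyadenylated RNA was sequenced from 30 libraries in 15 groups of 2. Doxorubicin-resistant cells received 350 nM or 1 µM doxorubicin or DMSO, the solvent control. Paclitaxel-resistant cells received 6.5 or 10 nM paclitaxel, ruxolitinib, ruxolitinib with 6.5 nM paclitaxel, or DMSO. Parental cells received 2.5 or 10 nM paclitaxel, 65 nM or 1 µM doxorubicin, ruxolitinib, ruxolitinib with 2.5 nM paclitaxel, or DMSO. Ruxolitinib inhibits the kinases JAK1 and JAK2, doxorubicin poisons topoisomerase II and damages DNA, and paclitaxel stabilises microtubules. Exposure lasted 72 h and began 24 h after plating. The labels give ruxolitinib as 15 µM alone and as 15 nM in both combinations, and the doses stand here as labelled. They do not say how the resistant lines were made, whether either is a single clone, or whether replicates came from separate cultures, so the p-values rest on a spread between libraries that may be technical.

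Interferons bind receptors that activate JAK kinases, and these phosphorylate transcription factors of the STAT family. STAT proteins join IRF9 to form ISGF3, which binds interferon-stimulated response elements (ISRE), whereas STAT dimers bind gamma-activated sites (GAS), as in the promoter of IRF1. The target genes encode sensors and inhibitors of viral RNA, ISG15 (a ubiquitin-like modifier) with its conjugating enzymes, large GTPases and proteins that block viral entry. In tumour cells, the same genes can be driven without infection by the cell's own nucleic acids after DNA damage or faulty mitosis.

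The promoters were searched for letters like those of these elements near the gene starts. RefSeq promoters (GRCh38.p14) were found for 38 of the 47 genes, while the authors' reads were aligned to GRCh37. The 250 bases before each start were searched on both strands. Only 1 promoter per gene was used, so matches at other starts of a gene were not counted. An ISRE-like sequence, spelled GAAA, then any 2 bases (NN), then GAAA, was present in 21 of the 38 (55.3%), against 839 of 27305 promoters of that length (3.07%). The GAS-like letters TTCNNNGAA were present in 11 of the 38 (28.9%), against 1850 of 27305 (6.78%). Both occurred in 6 of the 38 (15.8%, against 0.289% of all promoters) and neither in 12 (31.6%, against 90.4%). A match of letters is a description and not a bound site. Elements with another spelling or spacing were not counted, so a promoter without a match may still hold one. The OAS1 promoter below, for example, holds gaaacgaaa near its end, with 1 base in place of 2, and this was not marked. The 5 promoters below belong to genes with large changes, and capitals mark both kinds of match. IFI6 (chr1:27672193-27672442, minus strand) has 3 ISRE-like matches. IFI27 (chr14:94110486-94110735, plus strand) has 2 ISRE-like matches and 1 GAS-like match, which overlap in a single run of capitals. OAS1 (chr12:112906712-112906961, plus strand) and IRF1 (chr5:132490774-132491023, minus strand) each have 1 GAS-like match, and GBP1 (chr1:89065209-89065458, minus strand) has 1 ISRE-like match.
IFI6: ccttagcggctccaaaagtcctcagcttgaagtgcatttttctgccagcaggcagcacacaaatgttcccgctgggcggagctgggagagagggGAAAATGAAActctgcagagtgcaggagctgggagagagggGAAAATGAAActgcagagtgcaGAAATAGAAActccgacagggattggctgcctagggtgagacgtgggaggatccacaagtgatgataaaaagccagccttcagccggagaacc
IFI27: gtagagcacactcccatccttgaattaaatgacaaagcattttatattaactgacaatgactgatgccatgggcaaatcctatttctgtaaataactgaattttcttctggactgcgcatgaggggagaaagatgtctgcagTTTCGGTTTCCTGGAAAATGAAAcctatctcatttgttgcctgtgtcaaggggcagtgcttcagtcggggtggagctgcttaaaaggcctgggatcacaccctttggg
OAS1: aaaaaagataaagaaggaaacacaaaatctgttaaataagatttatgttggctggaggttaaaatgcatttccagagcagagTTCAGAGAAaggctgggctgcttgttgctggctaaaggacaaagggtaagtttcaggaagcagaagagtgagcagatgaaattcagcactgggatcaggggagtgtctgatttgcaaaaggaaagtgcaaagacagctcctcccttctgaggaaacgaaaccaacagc
IRF1: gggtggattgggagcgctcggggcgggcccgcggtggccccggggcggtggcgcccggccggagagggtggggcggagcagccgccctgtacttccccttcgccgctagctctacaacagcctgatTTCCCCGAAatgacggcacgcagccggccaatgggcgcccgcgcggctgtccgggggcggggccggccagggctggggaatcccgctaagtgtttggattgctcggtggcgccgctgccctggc
GBP1: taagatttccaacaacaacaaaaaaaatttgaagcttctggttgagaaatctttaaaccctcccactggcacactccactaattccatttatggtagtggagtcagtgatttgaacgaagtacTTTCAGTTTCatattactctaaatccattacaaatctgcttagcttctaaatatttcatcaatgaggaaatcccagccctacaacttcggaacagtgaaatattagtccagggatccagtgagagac

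The libraries held 18443749 to 32669995 reads assigned to genes. A gene with no read may have had up to 3, which is 0.0947 to 0.163 CPM by library. All 7 luminal markers (ERBB2, EPCAM, KRT8, KRT18, KRT19, GATA3 and CDH1) were present in every library, with a summed level of 4172 to 8002 CPM. Of 11 markers of immune, stromal and endothelial cells in the table, 5 passed the filter, and the 11 summed to 16.0 to 46.6 CPM, of which CD68 and COL1A1 made up the larger part. Replicates of parental DMSO stood apart by a trend with GC content (Spearman rho 0.79 across genes, which are not replicates, between transcript GC and the difference replicate 2 minus replicate 1; -0.72 to 0.79 over the 15 groups). In bulk RNA, a change in the number of cells that express a gene and a change in RNA per cell cannot be told apart.

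Of 11 interferon genes looked up in the table, 0 passed the filter, and the one with the most reads in any library was IFNB1 (interferon beta), with 6 reads. XAF1, an antagonist of apoptosis inhibitors, reached at most 0.408 CPM, and IFITM1, which blocks viral entry at the cell surface, reached 1 CPM in a single library. These 2 listed genes were therefore not tested. Of the 45 others, 34 were at 1 CPM or more in all 30 libraries. The least often above this level were EPSTI1 (6 libraries), MX2 (11), HERC5 (13), IRF7 (14), OASL (14) and TRIM22 (15). The highest library lay in parental cells at 1 µM doxorubicin for 20 of the 45 genes, and the lowest lay in parental cells with ruxolitinib for 19. Parental cells at 1 µM doxorubicin also held the lowest library for 9. Of all tested genes, 34.3% were called higher and 41.5% lower at that dose against DMSO. Highest and lowest libraries were not counted over all tested genes, so these counts are a description only. PARP9 and DTX3L start on opposite strands with overlapping ends, as do RSAD2 and CMPK2, and strand use in counting is not given in the sources used here, so reads in the overlaps may be shared between partners. USP18 has a near-identical copy, and IFITM2 and IFITM3 are close paralogs, so their values are uncertain.

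**Figure D1:**
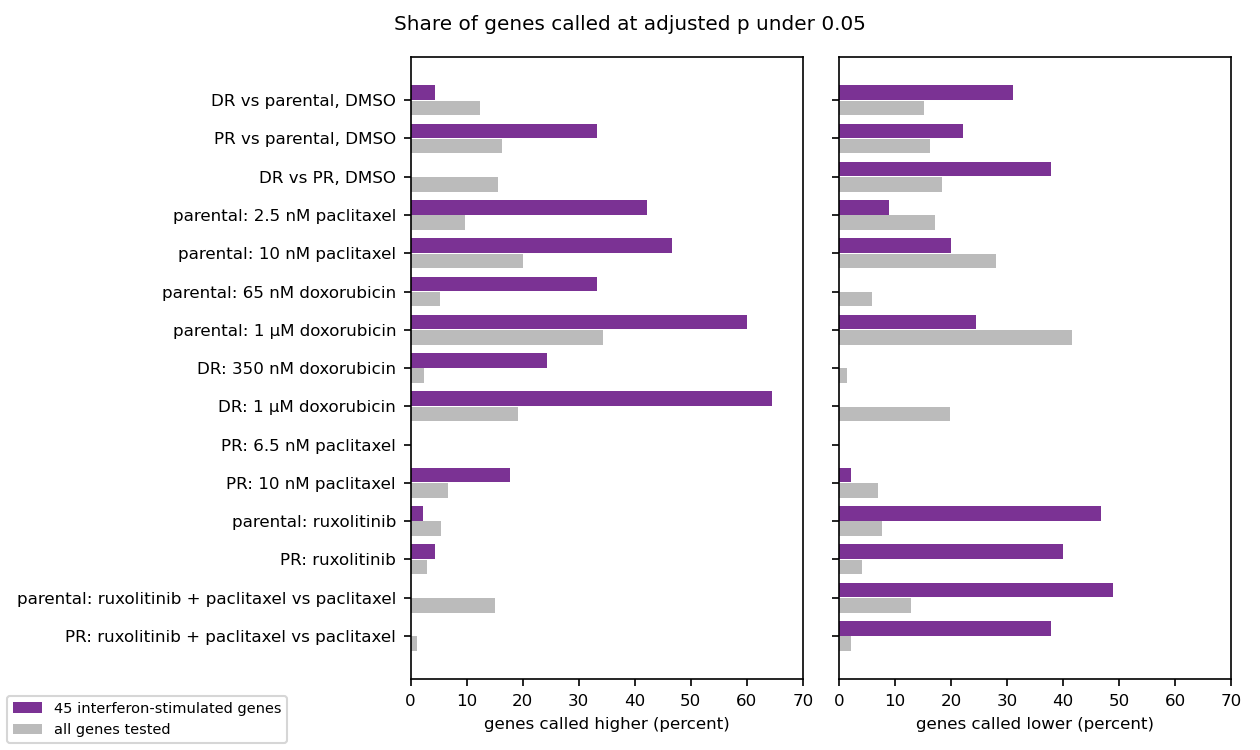
Share of genes called higher (left panel, percent) and lower (right panel, percent) at an adjusted p under 0.05 in each of 15 comparisons, for the 45 interferon-stimulated genes (purple) and all 12743 tested genes (grey); DR stands for doxorubicin-resistant and PR for paclitaxel-resistant cells. With 1 µM doxorubicin in doxorubicin-resistant cells 29 of 45 were called higher, and with ruxolitinib in parental cells 21 of 45 were called lower.

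Fold changes are differences of log2(CPM + 1) from a limma fit, so they understate the change of genes at low CPM. Values after ± are standard errors, and each group has n = 2. Calls were made where the p adjusted by Benjamini-Hochberg over all tested genes was under 0.05. Most genes given with values of single libraries were picked among called genes whose groups did not overlap. A lack of overlap stated below is therefore a description and adds no support to a call. It was not counted over all tested genes. Medians are over the 45 genes, and the median over all tested genes lay between -0.07 and 0.08 in each of 18 comparisons, which are 15 of pairs of groups and 3 of differences between responses.

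In paclitaxel-resistant cells in DMSO, IFI27 and OAS2 showed the largest rises and GBP1 and ISG20 the largest falls of the list against parental cells in DMSO. Of the 45 genes, 15 rose and 10 fell, beside 16.3% of all tested genes up and 16.3% down, with a median log2 of 0.12. IFI27, a mitochondrial protein, had 22.9 and 21.8 CPM in paclitaxel-resistant cells, against 1.09 and 1.29 CPM in parental cells. Both resistant libraries lay far above both parental ones, and the log2 fold change was 3.42 ± 0.22 (adjusted p = 1.29e-11). OAS2, one of the oligoadenylate synthetases that activate RNase L on double-stranded RNA, had 20.8 and 19.2 CPM in paclitaxel-resistant cells, against 2.63 and 2.38 CPM in parental cells, a change of 2.58 ± 0.15 (adjusted p = 2.42e-12).

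Not all relatives moved together in this comparison. OAS3 (0.12), OAS1 (0.00) and OASL (-0.06) did not pass, although they belong to the family of OAS2. HERC6, a HERC-family protein related to the ISG15 ligase HERC5, had 12.2 and 13.7 CPM in paclitaxel-resistant cells, against 4.33 and 3.06 CPM in parental cells, and changed by 1.58 ± 0.12 (adjusted p = 2.19e-10). IFI6, which restrains apoptosis, had 10.6 and 11.8 CPM in paclitaxel-resistant cells, against 3.20 and 3.58 CPM in parental cells, and changed by 1.47 ± 0.17 (adjusted p = 4.61e-07). Both resistant libraries lay above both parental libraries for HERC6 and for IFI6. Further rises were in IFI44L (1.19 ± 0.15), an interferon-induced gene of poorly known function, SAMD9L (1.10 ± 0.15), a restrictor of poxviruses and of translation, TRIM22 (0.89 ± 0.14), an antiviral ubiquitin ligase, and DDX60 (0.78 ± 0.10), a helicase that promotes RIG-I signalling. IFIT1 (0.84 ± 0.19) and IFIT5 (0.43 ± 0.12), which bind viral RNA, rose, whereas their relative IFIT2 fell (-0.41 ± 0.14). The calls of IFIT5 and IFIT2 were lost without parental DMSO replicate 2 or paclitaxel-resistant DMSO replicate 2. The call of IFIT2 was lost without paclitaxel-resistant DMSO replicate 1.

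The falls in paclitaxel-resistant cells included a GTPase, a nuclease and a transcription factor. GBP1, a guanylate-binding GTPase active against intracellular pathogens, had 7.25 and 7.89 CPM in paclitaxel-resistant cells, against 14.7 and 13.4 CPM in parental cells, a log2 fold change of -0.81 ± 0.12 (adjusted p = 8.26e-06). IRF1, the transcription factor induced through its GAS element, had 24.3 and 25.2 CPM in paclitaxel-resistant cells, against 35.1 and 42.5 CPM in parental cells, a change of -0.62 ± 0.10 (adjusted p = 3.89e-05). In both genes the resistant libraries were the lower ones, without overlap. ISG20, an RNA exonuclease, fell by 0.66 on the log2 scale, GBP3 by 0.49 and the nuclear body gene SP110 by 0.42. IRF9 rose (0.47 ± 0.15) while IRF7, the regulator of interferon genes, had a log2 of -0.33 and did not pass. The call of IRF9 was lost without parental DMSO replicate 1 or paclitaxel-resistant DMSO replicate 1. Outside the list, the antigen presentation genes HLA-B (1.12), HLA-F (0.79) and B2M (0.70) rose, 5 of 13 in all with 1 fall (PSMB9, -0.35), beside 16.3% of all genes in each direction. The feedback inhibitors SOCS3 (-1.11) and SOCS1 (-0.69) fell. The immune, stromal and endothelial list summed to 18 to 18.4 CPM in resistant cells and to 24.9 to 27.3 CPM in parental cells. CD68 fell (-0.84 ± 0.10) and VWF rose (0.66 ± 0.13), and the part of the list in the result was not tested.

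**Figure D2:**
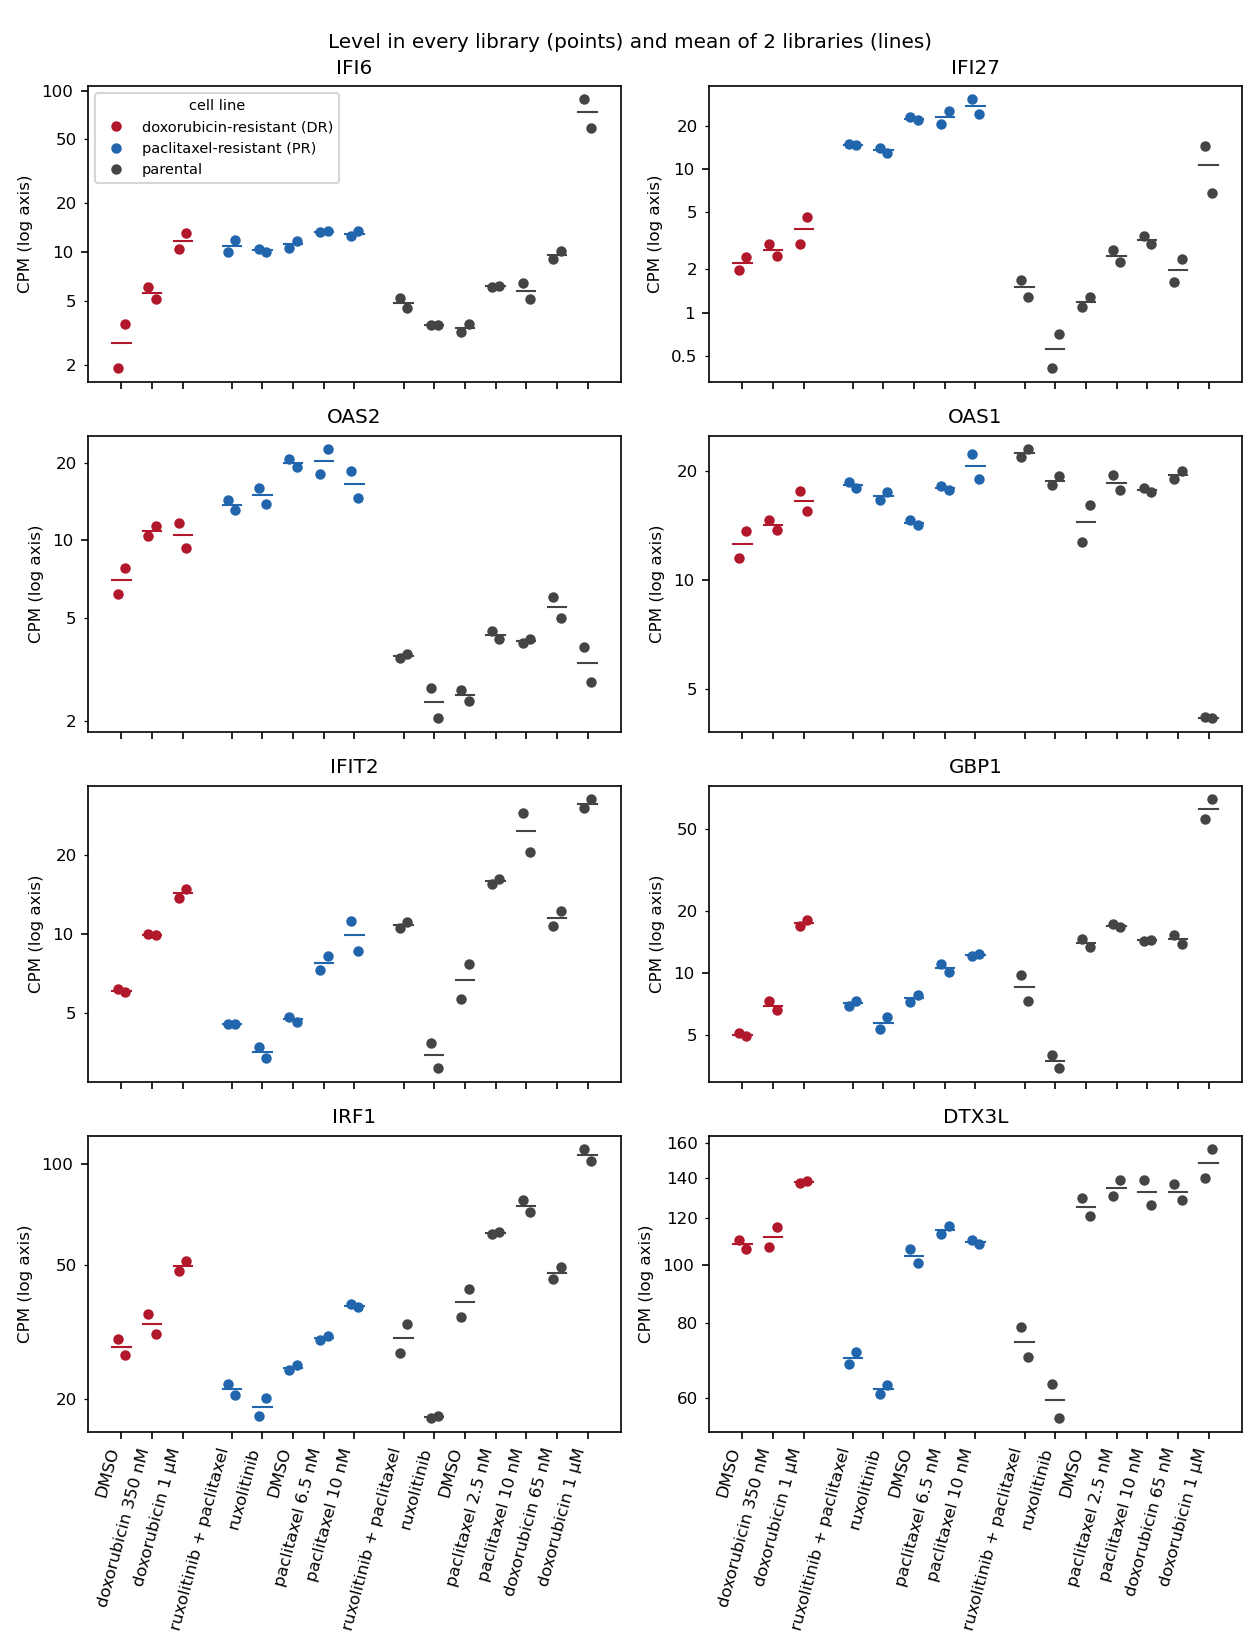
CPM (log axis) of 8 genes in every library (points), with the mean of 2 libraries (lines), by treatment and cell line. IFI27 and OAS2 are high in paclitaxel-resistant libraries, while IFI6 is highest and OAS1 lowest in parental cells at 1 µM doxorubicin.

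In doxorubicin-resistant cells in DMSO, 2 of the 45 genes rose and 14 fell against parental cells in DMSO, beside 12.3% of all tested genes up and 15.2% down. The median log2 was -0.10. OAS2 rose, with 6.21 and 7.85 CPM in doxorubicin-resistant cells, against 2.63 and 2.38 CPM in parental cells (log2 fold change 1.19 ± 0.15, adjusted p = 1.19e-06). HERC6 rose as well, with 6.17 and 6.04 CPM in doxorubicin-resistant cells, against 4.33 and 3.06 CPM in parental cells (log2 fold change 0.61 ± 0.12, adjusted p = 0.000339). For both genes the resistant libraries were the higher ones. GBP1 showed the largest fall, with 5.14 and 4.96 CPM in doxorubicin-resistant cells, against 14.7 and 13.4 CPM in parental cells, a log2 fold change of -1.31 ± 0.12 (adjusted p = 7.22e-09). Its highest resistant library was far below its lowest parental library. SAMD9, a restrictor of translation, had 51.1 and 60.9 CPM in doxorubicin-resistant cells, against 109.6 and 93.6 CPM in parental cells, a change of -0.85 ± 0.15 (adjusted p = 0.000108). IRF9 had 4.38 and 5.0 CPM in doxorubicin-resistant cells, against 7.85 and 9.99 CPM in parental cells, a change of -0.80 ± 0.15 (adjusted p = 0.0002). Resistant libraries were lower for SAMD9 and for IRF9 without overlap. ISG20 fell by 0.84, IFITM3, which blocks fusion of virus with endosomes, by 0.76, and OASL, which enhances RIG-I, by 0.64. The call of OASL was lost without parental DMSO replicate 2, doxorubicin-resistant DMSO replicate 1 or doxorubicin-resistant DMSO replicate 2. Of 13 antigen presentation genes, 0 rose and 4 fell, and MB21D1, which encodes the DNA sensor cGAS, had 1 read in each resistant library, against 151 and 164 reads in parental cells (adjusted p = 3.61e-11).

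Set directly against each other, doxorubicin-resistant cells had 17 of the 45 genes lower than paclitaxel-resistant cells and 0 higher, beside 18.4% of all tested genes lower and 15.6% higher. At an unadjusted p under 0.05 there was 1 higher gene, IFIT2, and voom called 0. IFI27 had 1.98 and 2.46 CPM in doxorubicin-resistant cells, against 22.9 and 21.8 CPM in paclitaxel-resistant cells, a log2 fold change of -2.86 ± 0.22 (adjusted p = 2.47e-10). IFI6 had 1.90 and 3.58 CPM in doxorubicin-resistant cells, against 10.6 and 11.8 CPM in paclitaxel-resistant cells, a change of -1.74 ± 0.17 (adjusted p = 2.86e-08). SAMD9L differed by -1.55 ± 0.15, IFI44L by -1.49 ± 0.15, OAS2 by -1.39 ± 0.15 and IRF9 by -1.27 ± 0.15. For each of these 6 genes, the 2 groups did not overlap, which was a condition for naming them here. The 3 baseline comparisons share libraries and are not independent of each other.

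Paclitaxel raised the viral RNA binders and transcription factors of the list in parental cells. At 2.5 nM, 19 of the 45 genes rose and 4 fell against DMSO (9.71% and 17.1% of all genes), and at 10 nM 21 rose and 9 fell (20.1% and 28.1%). The medians were 0.25 and 0.19. RSAD2 (viperin, which makes a chain-terminating nucleotide) had 4.45 and 4.75 CPM in 2.5 nM paclitaxel, against 1.05 and 1.35 CPM in DMSO, a log2 fold change of 1.35 ± 0.22 (adjusted p = 0.000318). The higher dose gave 9.86 and 9.16 CPM in 10 nM paclitaxel, against 1.05 and 1.35 CPM in DMSO, a change of 2.26 ± 0.22 (adjusted p = 2.88e-08). Treated libraries at both doses were above both DMSO libraries. IFIT2, one of the IFIT proteins that bind viral RNA, had 15.5 and 16.2 CPM in 2.5 nM paclitaxel, against 5.67 and 7.74 CPM in DMSO (log2 fold change 1.15 ± 0.14, adjusted p = 1.65e-05). The higher dose gave 29.1 and 20.5 CPM in 10 nM paclitaxel, against 5.67 and 7.74 CPM in DMSO (log2 fold change 1.74 ± 0.14, adjusted p = 1.79e-09). Neither dose overlapped DMSO for IFIT2 or for OASL, which had 3.09 and 5.0 CPM in 2.5 nM paclitaxel, against 0.688 and 1.03 CPM in DMSO (log2 fold change 1.42 ± 0.23, adjusted p = 0.000279). At the higher dose OASL had 5.57 and 3.28 CPM in 10 nM paclitaxel, against 0.688 and 1.03 CPM in DMSO (log2 fold change 1.52 ± 0.23, adjusted p = 1.19e-05).

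All 4 IFIT genes and all 3 transcription factors (IRF1, IRF7 and IRF9) passed upwards at both doses in parental cells. ISG15 had 4.29 and 4.61 CPM in 10 nM paclitaxel, against 1.34 and 1.29 CPM in DMSO (log2 fold change 1.24 ± 0.15, adjusted p = 4.18e-07). Its ligase HERC5 had 1.94 and 1.86 CPM in 10 nM paclitaxel, against 0.162 and 0.226 CPM in DMSO (log2 fold change 1.28 ± 0.18, adjusted p = 3.41e-06). In DMSO, HERC5 had only 4 and 7 reads, and for both genes the treated libraries were the higher ones. IFIT1 changed by 0.99 ± 0.19, IFIT3 by 0.61 ± 0.15 and IFIT5 by 0.33 ± 0.12. The 9 that fell at 10 nM were IFI44L (-0.88 ± 0.15), IFITM2 (-0.71 ± 0.12), BST2 (-0.51 ± 0.11; tetherin, which holds virions on the cell), LGALS3BP (-0.49 ± 0.11; a secreted glycoprotein) and IFI44 (-0.46 ± 0.12), with GBP2 (-0.49 ± 0.08), PLSCR1 (-0.36 ± 0.12; a scramblase), UBE2L6 (-0.36 ± 0.10; the conjugating enzyme for ISG15) and PARP9 (-0.33 ± 0.08). The calls of IFI44, PLSCR1, IFIT3 and IRF9 were lost without parental DMSO replicate 1. The calls of PLSCR1, IFIT3 and IRF9 were lost without parental 10 nM paclitaxel replicate 1. The calls of UBE2L6 and IFIT5 were lost without parental DMSO replicate 2 or parental 10 nM paclitaxel replicate 2. The count at 2.5 nM was 7 without parental DMSO replicate 1 and 8 without replicate 2 of the treated group. At 2.5 nM the single-library losses included IFIT1, IFIT3, IFIT5, IRF7 and IRF9, whereas RSAD2, IFIT2, OASL, ISG15 and IRF1 kept their calls without any 1 library. Markers of immune, stromal and endothelial cells summed to 34.5 to 37.2 CPM at 2.5 nM and 41.1 to 46.6 CPM at 10 nM, against 24.9 to 27.3 CPM in DMSO. CD14, CD68 and VWF rose at both doses (CD68 by 0.51 ± 0.10 and 0.92 ± 0.10), and COL1A1 fell at 10 nM (-0.42 ± 0.14). PTPRC, the leukocyte antigen, was at most 0.245 CPM in these libraries, and the part of the list in the result was not tested.

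In paclitaxel-resistant cells, 6.5 nM paclitaxel gave 0 calls among the 45 genes, beside 0.0706% of all genes up and 0.0235% down. The median log2 was 0.11. At an unadjusted p under 0.05, 10 genes were higher and 0 lower, and voom called 0. At 10 nM, 8 rose and 1 fell (6.62% and 6.99% of all genes), with a median of 0.08. RSAD2 had 5.14 and 5.62 CPM in 10 nM paclitaxel, against 2.02 and 2.10 CPM in DMSO (log2 fold change 1.06 ± 0.22, adjusted p = 0.00242). IFIT2 had 11.2 and 8.66 CPM in 10 nM paclitaxel, against 4.85 and 4.65 CPM in DMSO (log2 fold change 0.92 ± 0.14, adjusted p = 0.000112). GBP1 had 12.2 and 12.5 CPM in 10 nM paclitaxel, against 7.25 and 7.89 CPM in DMSO (log2 fold change 0.64 ± 0.12, adjusted p = 0.000729). Treated libraries of all 3 genes were above both DMSO libraries. IRF1 rose by 0.59 ± 0.10 and OAS1 by 0.48 ± 0.10, and IFITM2 fell by 0.57. The calls of OAS1 and ISG15 were lost without paclitaxel-resistant 10 nM paclitaxel replicate 1. The calls of IRF7 and ISG15 were lost without paclitaxel-resistant DMSO replicate 1. The calls of IRF7, HERC5 and ISG15 were lost without paclitaxel-resistant DMSO replicate 2 or paclitaxel-resistant 10 nM paclitaxel replicate 2.

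The dose of 10 nM was given to both lines, so the responses could be compared in 1 model. The response of paclitaxel-resistant cells minus that of parental cells was negative for 8 of the 45 genes and positive for 1, beside 3.88% and 6.87% of all genes. OASL differed by -1.49 ± 0.33 (adjusted p = 0.00487), as its change was 0.03 ± 0.23 in resistant cells and 1.52 ± 0.23 in parental cells. RSAD2 differed by -1.20 ± 0.31 (adjusted p = 0.0158) and IFIT1 by -1.02 ± 0.26 (adjusted p = 0.0145). The 1 positive gene was GBP1, at 0.59 ± 0.17 (adjusted p = 0.0235), with 0.64 ± 0.12 in resistant cells and 0.04 ± 0.12 in parental cells. Without parental 10 nM paclitaxel replicate 1 the count was 5, and without paclitaxel-resistant DMSO replicate 1 it was 4. The calls of RSAD2 and GBP1 were lost without paclitaxel-resistant DMSO replicate 1 or paclitaxel-resistant 10 nM paclitaxel replicate 1. The calls of RSAD2 and IFIT1 were lost without paclitaxel-resistant DMSO replicate 2. The calls of IFIT1 and GBP1 were lost without parental 10 nM paclitaxel replicate 1. The call of IFIT1 was lost without paclitaxel-resistant 10 nM paclitaxel replicate 2. The call of GBP1 was lost without parental DMSO replicate 1 or parental 10 nM paclitaxel replicate 2.

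The largest fold change of the list was that of IFI6 with doxorubicin. In parental cells, 65 nM raised 15 of the 45 genes and lowered 0 (5.21% and 5.94% of all genes), with 0 lower at an unadjusted p under 0.05 and 0 lower by voom. At 1 µM, 27 rose and 11 fell (34.3% and 41.5%), and the medians were 0.26 and 0.58. IFI6 had 9.03 and 10.1 CPM in 65 nM doxorubicin, against 3.20 and 3.58 CPM in DMSO, a log2 fold change of 1.27 ± 0.17 (adjusted p = 5.66e-05). The higher dose gave 88.2 and 58.7 CPM in 1 µM doxorubicin, against 3.20 and 3.58 CPM in DMSO, a change of 4.06 ± 0.17 (adjusted p = 1.11e-15). These were the highest IFI6 libraries in the series. OAS2 rose at 65 nM (log2 fold change 0.89 ± 0.15, adjusted p = 0.000382), with 6.06 and 5.02 CPM in 65 nM doxorubicin, against 2.63 and 2.38 CPM in DMSO, and at 1 µM its log2 of 0.30 ± 0.15 did not pass. SP110 rose by 0.39 ± 0.07 at 65 nM, and its log2 of -0.13 ± 0.07 at 1 µM was not called. At 65 nM the immune, stromal and endothelial list summed to 31.7 to 33.3 CPM, against 24.9 to 27.3 CPM in DMSO. The endothelial gene VWF rose by 0.61 ± 0.13, the only called gene among the 5 of that list that passed the filter, and its part in the result was not tested. At 65 nM the count was 8 without parental DMSO replicate 1 and 3 without replicate 2 of the treated group. The calls of IFI6, OAS2 and SP110 were kept without any 1 library.

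At 1 µM doxorubicin in parental cells, all genes of 3 small groups rose, namely transcription factors, IFIT proteins and nucleotide and RNA turnover. ISG15 had 12.8 and 10.7 CPM in 1 µM doxorubicin, against 1.34 and 1.29 CPM in DMSO (log2 fold change 2.46 ± 0.15, adjusted p = 3.79e-13). IFI27 had 14.5 and 6.80 CPM in 1 µM doxorubicin, against 1.09 and 1.29 CPM in DMSO (log2 fold change 2.33 ± 0.22, adjusted p = 9.77e-10). ISG20 had 55.6 and 42.8 CPM in 1 µM doxorubicin, against 8.58 and 12.0 CPM in DMSO (log2 fold change 2.16 ± 0.14, adjusted p = 1.37e-12). All 6 treated values exceed the DMSO values of their gene, although the IFI27 replicates differ by more than a factor of 2. HERC5 had 4.29 and 5.03 CPM in 1 µM doxorubicin, against 0.162 and 0.226 CPM in DMSO (log2 fold change 2.24 ± 0.18, adjusted p = 5.8e-11). IFIT2 had 30.3 and 32.6 CPM in 1 µM doxorubicin, against 5.67 and 7.74 CPM in DMSO (log2 fold change 2.09 ± 0.14, adjusted p = 4.31e-12). All 3 transcription factors rose (IRF7 by 1.69 ± 0.17, IRF1 by 1.44 ± 0.10 and IRF9 by 0.46 ± 0.15), as did all 4 IFIT genes and all 3 turnover genes, RSAD2 (1.54 ± 0.22), CMPK2 (0.61 ± 0.17; a mitochondrial nucleotide kinase) and ISG20. Others that rose were GBP1 (2.08 ± 0.12), PARP14 (1.51 ± 0.09; an ADP-ribosyltransferase), TRIM21 (1.17 ± 0.15; an antibody receptor of the cytosol) and IFI35 (0.63 ± 0.10). The call of IRF9 was lost without parental DMSO replicate 1 or parental 1 µM doxorubicin replicate 1.

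The same dose lowered other members in parental cells. OAS1 had 4.19 and 4.16 CPM in 1 µM doxorubicin, against 12.7 and 16.1 CPM in DMSO, a log2 fold change of -1.56 ± 0.10 (adjusted p = 2.87e-12), and its treated libraries were the lowest of the series. IFI44 had 8.38 and 9.90 CPM in 1 µM doxorubicin, against 24.9 and 21.5 CPM in DMSO (log2 fold change -1.25 ± 0.12, adjusted p = 1.85e-09). IFI44L had 0.771 and 1.14 CPM in 1 µM doxorubicin, against 3.97 and 3.51 CPM in DMSO (log2 fold change -1.28 ± 0.15, adjusted p = 3.3e-08). IFITM2 had 16.6 and 15.6 CPM in 1 µM doxorubicin, against 32.8 and 41.7 CPM in DMSO (log2 fold change -1.15 ± 0.12, adjusted p = 7.37e-09). Groups of these 4 genes did not overlap. SAMD9L fell by 1.01 while its neighbour and paralog SAMD9 rose by 1.16 ± 0.15, and MX1, an antiviral dynamin-like GTPase, fell by 0.57, USP18 (the ISG15 protease) by 0.33, GBP2 by 0.39, LGALS3BP by 0.61 and EPSTI1 by 0.44. OAS3 was called lower (-0.26 ± 0.07), but once each library was adjusted for transcript GC and length its log2 was 0.038 and not called, and IFITM3 (0.12 ± 0.13, not called) was at -0.16 after it and called lower. The calls of OAS3 and EPSTI1 were lost without parental DMSO replicate 2. The call of EPSTI1 was lost without parental 1 µM doxorubicin replicate 2. MX2 (0.01) and EIF2AK2 (-0.18; the kinase PKR, which stops translation on double-stranded RNA) did not pass.

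In doxorubicin-resistant cells, 350 nM doxorubicin raised 11 of the 45 genes and lowered 0 (2.39% and 1.43% of all genes, median 0.21). At 1 µM, 29 rose and 0 fell (19.1% and 19.9%, median 0.46). At an unadjusted p under 0.05, MX1 alone was lower at each dose, and voom called 0 lower at either. IFI6 had 6.07 and 5.13 CPM in 350 nM doxorubicin, against 1.90 and 3.58 CPM in DMSO (log2 fold change 0.85 ± 0.17, adjusted p = 0.0055). The higher dose gave 10.4 and 13.1 CPM in 1 µM doxorubicin, against 1.90 and 3.58 CPM in DMSO (log2 fold change 1.80 ± 0.17, adjusted p = 3.2e-08). Both doses lay above DMSO. The call of IFI6 at 350 nM was lost without doxorubicin-resistant DMSO replicate 1 or doxorubicin-resistant 350 nM doxorubicin replicate 1. At 1 µM GBP1 had 17.0 and 18.2 CPM in 1 µM doxorubicin, against 5.14 and 4.96 CPM in DMSO (log2 fold change 1.62 ± 0.12, adjusted p = 4.2e-10). SAMD9 had 124 and 124 CPM in 1 µM doxorubicin, against 51.1 and 60.9 CPM in DMSO (log2 fold change 1.14 ± 0.15, adjusted p = 2.22e-06), beside 109.6 and 93.6 CPM in parental DMSO. GBP3 had 80.3 and 85.1 CPM in 1 µM doxorubicin, against 40.2 and 36.5 CPM in DMSO (log2 fold change 1.09 ± 0.10, adjusted p = 8.64e-09). For these genes no treated library overlapped DMSO. ISG20 rose by 1.22 ± 0.14 and IFIT2 by 1.11 ± 0.14. PLSCR1 (0.41 ± 0.12), TRIM22 (0.85 ± 0.14) and SP110 (0.51 ± 0.07) also rose. The call of PLSCR1 was lost without doxorubicin-resistant DMSO replicate 2.

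The 350 nM result changed with single libraries. The count of 11 was 0 without doxorubicin-resistant DMSO replicate 1, 2 without DMSO replicate 2, 2 without 350 nM replicate 1 and 5 without 350 nM replicate 2. The immune, stromal and endothelial list summed to 33.9 to 37.9 CPM at 350 nM, and VWF rose by 0.73 ± 0.13. At 1 µM, replicate 1 had 5.96 CPM of PTPRC and 0.505 CPM of the T-cell gene CD3E, against 0.232 and 0.0387 CPM in replicate 2, and IFITM1 had 33 reads in replicate 1 and 0 in replicate 2. The count at 1 µM was 23 up and 0 down without replicate 1, and 23 up and 0 down without replicate 2. The immune, stromal and endothelial list summed to 36.6 to 43.4 CPM at 1 µM in resistant cells, where VWF rose (1.65 ± 0.13), against 31.3 to 34.1 CPM in DMSO. In parental cells it summed to 38.0 to 43.3 CPM at 1 µM, where CD14 (2.07 ± 0.17) and VWF (2.47 ± 0.13) rose, against 24.9 to 27.3 CPM in DMSO. PTPRC was called higher in resistant (1.496 ± 0.431) and parental cells (1.18 ± 0.43). It passed the filter only through 2 libraries at this dose, so these calls are not read as group responses. Its reads at 1 µM were 189 and 6 in resistant and 19 and 45 in parental cells. The part of these markers in the 350 nM and the parental results was not tested.

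**Figure D3:**
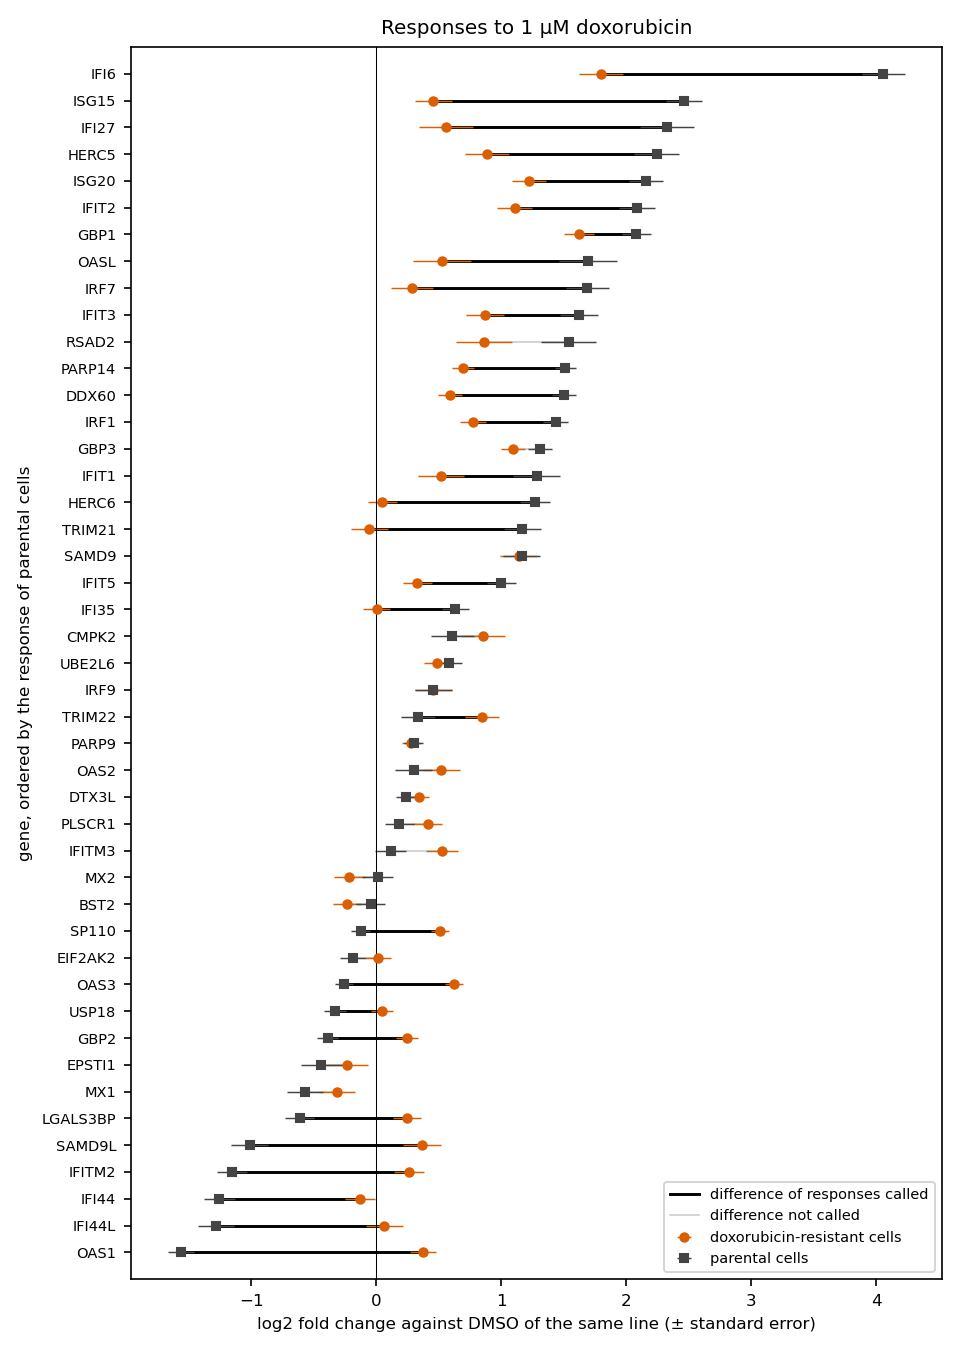
Log2 fold change (± standard error) at 1 µM doxorubicin against DMSO of the same line for 45 genes, in doxorubicin-resistant cells (circles) and parental cells (squares), with black lines where the difference of responses was called. IFI6 changed by 1.80 in resistant and 4.06 in parental cells, and OAS1 by 0.37 and -1.56.

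Of the 29 genes that rose at 1 µM in doxorubicin-resistant cells and the 27 in parental cells, 22 were the same. Over all tested genes, 19.1% rose in resistant and 34.3% in parental cells. Rises shared by both lines were not counted over all genes, so the 22 is a description only. OAS1, OAS3 and GBP2 rose in resistant cells (0.37 ± 0.10, 0.62 ± 0.07 and 0.25 ± 0.08) and fell in parental cells. Tested in 1 model, the response of resistant cells minus that of parental cells was negative for 18 of the 45 and positive for 11, beside 25.1% and 33.2% of all genes. OAS1 had 17.6 and 15.5 CPM in doxorubicin-resistant cells with 1 µM doxorubicin, against 11.5 and 13.6 CPM with DMSO, and the difference of responses was 1.94 ± 0.15 (adjusted p = 2.53e-10). The largest negative differences were in IFI6 (-2.26 ± 0.25, adjusted p = 5.66e-08) and ISG15 (-2.00 ± 0.21, adjusted p = 2.77e-08), and TRIM21 and HERC6 differed by -1.22 ± 0.21 and -1.22 ± 0.17. Positive differences included IFITM2 (1.42 ± 0.17), SAMD9L (1.38 ± 0.21) and IFI44L (1.35 ± 0.21). For SAMD9 (1.14 in resistant and 1.16 in parental cells) and GBP3 (1.09 and 1.31), the difference was not called, which does not show that the responses were alike. The rises of OAS1 and GBP2 in resistant cells were not called without doxorubicin-resistant DMSO replicate 1 or doxorubicin-resistant 1 µM doxorubicin replicate 1. The rise of GBP2 in resistant cells was not called without doxorubicin-resistant 1 µM doxorubicin replicate 2.

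The genes around the interferon pathway changed with the same dose. At 1 µM doxorubicin in resistant cells 12 of 13 antigen presentation genes rose and 0 fell, beside 19.1% of all genes up, and in parental cells all 13 rose, beside 34.3% up. HLA-B rose by 1.36 ± 0.14 in resistant and 2.96 ± 0.14 in parental cells, a difference of responses of -1.60 ± 0.19 (adjusted p = 3.05e-07). In resistant cells at 1 µM, replicate 1, the library with the most PTPRC reads, had 4764 HLA-B reads of 30990694. Replicate 2 had 2643 of 25421268, and the DMSO libraries had 1287 and 1197. The resistant-line counts in this paragraph are not given without replicate 1. In parental cells STAT2 (0.74 ± 0.13) rose while the kinase genes JAK1 (-0.24 ± 0.08) and JAK2 (-0.74 ± 0.13) fell. Receptors were mixed in parental cells, with IFNGR2 and IFNAR1 up and IFNAR2, IFNGR1 and IL10RB down. Of 9 nucleic acid sensor genes, 4 rose and 0 fell in resistant cells, beside 19.1% of all genes up and 19.9% down. In parental cells 5 rose and 2 fell, beside 34.3% up and 41.5% down. The 2 that fell were TLR3 (-1.17 ± 0.14) and MAVS (-0.50 ± 0.14). AIM2, also among the 9, passed the filter only through the 2 parental libraries at this dose (22 and 26 reads). A call of AIM2 at this dose is therefore not read as a group response. MB21D1 had 36 reads in resistant replicate 1 at 1 µM and 6 in replicate 2. DDX58, which encodes the RNA sensor RIG-I, rose by 1.41 ± 0.14 in resistant and 2.26 ± 0.14 in parental cells, and TMEM173, which encodes the adaptor STING, rose by 0.66 ± 0.13 and 1.56 ± 0.13.

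**Figure D4:**
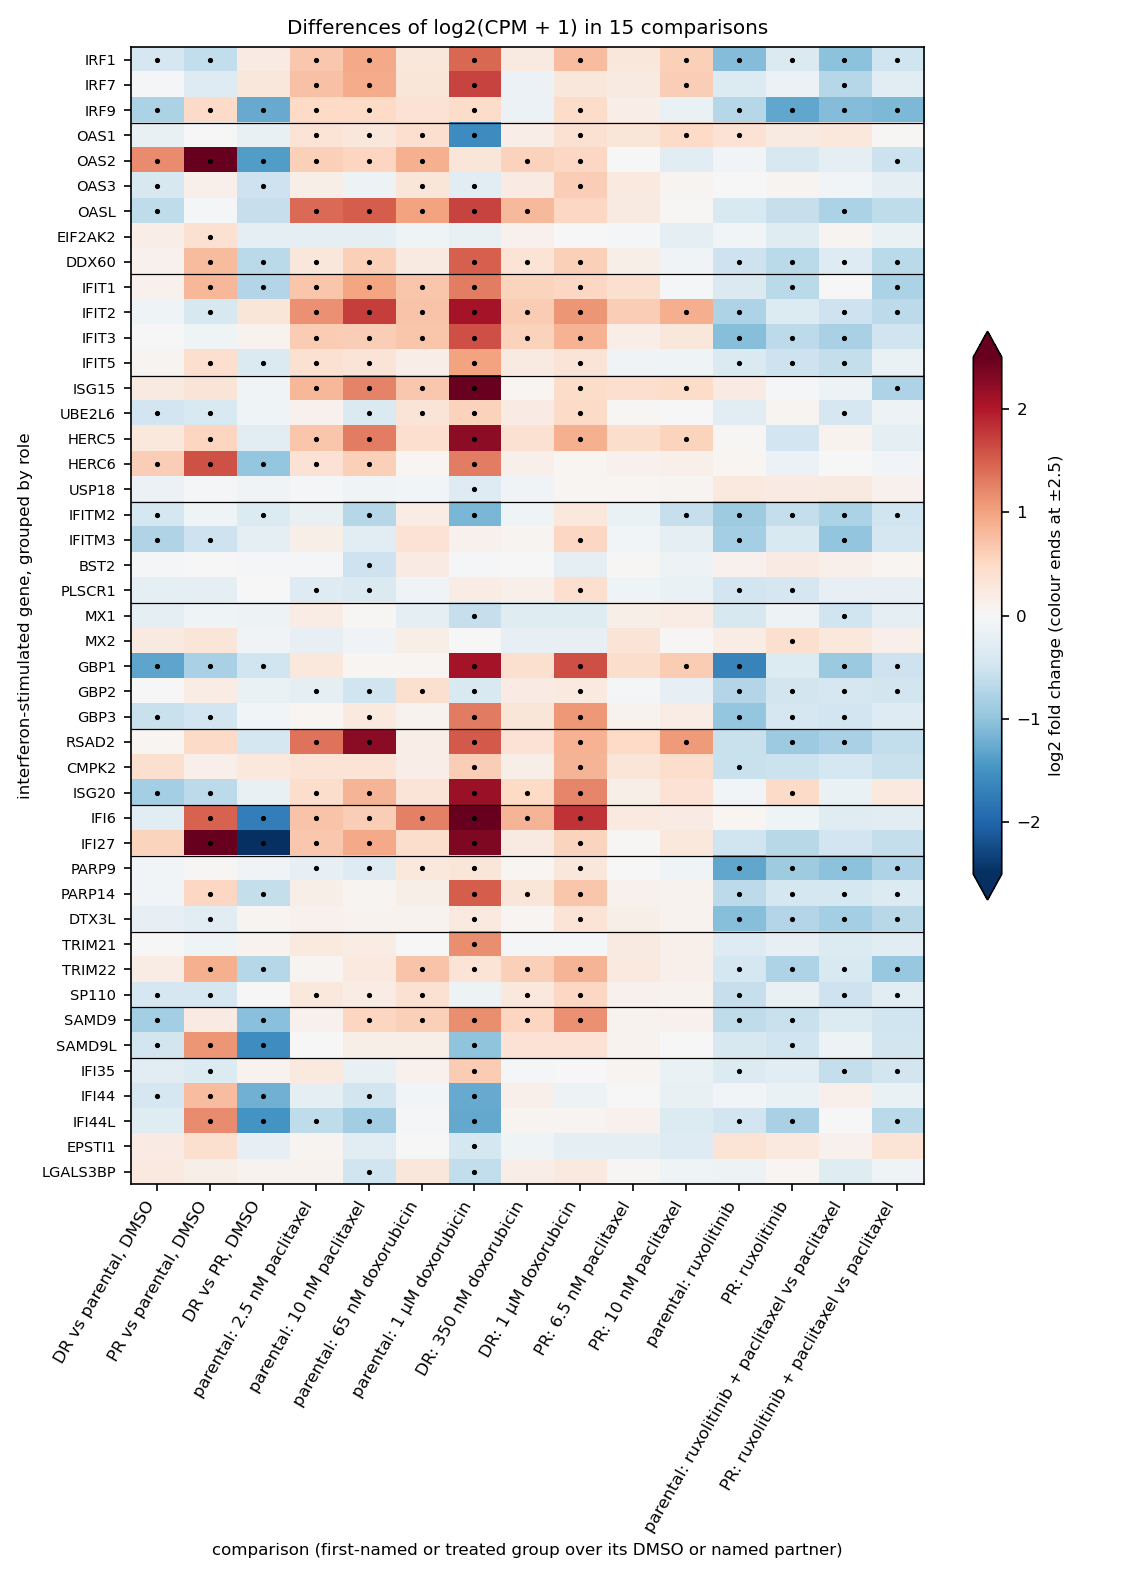
Log2 fold change (colour, ends at ±2.5) of the 45 genes, grouped by role, in 15 comparisons, with a dot where the adjusted p was under 0.05 (DR, doxorubicin-resistant; PR, paclitaxel-resistant). Columns with ruxolitinib are mostly blue and columns with doxorubicin mostly red, while the parental column at 1 µM doxorubicin also holds 11 called falls.

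Ruxolitinib lowered the transcription factor gene IRF9 and all 3 genes of the ADP-ribosylation group (PARP9, PARP14 and DTX3L) in both lines in which it was given. In paclitaxel-resistant cells 18 of the 45 genes fell and 2 rose against DMSO, beside 4.06% of all genes down and 2.86% up, and the median log2 was -0.37. In parental cells 21 fell and 1 rose, beside 7.71% down and 5.51% up, with a median of -0.39. IRF9, whose protein is part of ISGF3, had 4.29 and 4.83 CPM in paclitaxel-resistant cells with ruxolitinib, against 13.7 and 11.8 CPM with DMSO, a log2 fold change of -1.30 ± 0.15 (adjusted p = 2.5e-06). In parental cells it had 4.69 and 5.33 CPM in ruxolitinib, against 7.85 and 9.99 CPM in DMSO, a change of -0.72 ± 0.15 (adjusted p = 0.00163). Treated libraries of both lines lay below their DMSO libraries.

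The pair PARP9 and DTX3L, an ADP-ribosyltransferase and the ubiquitin ligase it binds, fell in both lines. PARP9 had 38.0 and 37.2 CPM in paclitaxel-resistant cells with ruxolitinib, against 71.6 and 69.7 CPM with DMSO (log2 fold change -0.89 ± 0.08, adjusted p = 9.88e-08). Parental cells had 28.6 and 26.0 CPM in ruxolitinib, against 72.5 and 65.5 CPM in DMSO (log2 fold change -1.30 ± 0.08, adjusted p = 4.36e-11). DTX3L had 60.9 and 63.0 CPM in paclitaxel-resistant cells with ruxolitinib, against 106 and 101 CPM with DMSO (log2 fold change -0.73 ± 0.08, adjusted p = 2.19e-06). Parental cells had 63.3 and 55.5 CPM in ruxolitinib, against 129 and 121 CPM in DMSO (log2 fold change -1.06 ± 0.08, adjusted p = 1.99e-09). No treated library overlapped a DMSO library for either gene. Of the 18 genes that fell in paclitaxel-resistant cells and the 21 in parental cells, 15 were the same: IRF1, IRF9, DDX60, IFIT3, IFIT5, IFITM2, PLSCR1, GBP2, GBP3, PARP9, PARP14, DTX3L, TRIM22, SAMD9 and IFI44L. Shared falls were not counted over all tested genes, so this overlap is a description only.

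Of the 45 genes, GBP1 and IRF1 had a called difference between the lines in their response to ruxolitinib. GBP1 had 5.39 and 6.14 CPM in paclitaxel-resistant cells with ruxolitinib, against 7.25 and 7.89 CPM with DMSO, a log2 of -0.34 ± 0.12 (adjusted p = 0.0877), which was not called. In parental cells it had 4.03 and 3.47 CPM in ruxolitinib, against 14.7 and 13.4 CPM in DMSO, a change of -1.67 ± 0.12 (adjusted p = 7.81e-10). The difference of responses was 1.32 ± 0.17 (adjusted p = 0.000111). IRF1 changed by -0.37 ± 0.10 (adjusted p = 0.0264) in resistant cells and by -1.09 ± 0.10 (adjusted p = 5.96e-08) in parental cells, with 17.5 and 17.8 CPM in ruxolitinib, against 35.1 and 42.5 CPM in DMSO, and the difference was 0.72 ± 0.14 (adjusted p = 0.0194). These 2 positive differences stand beside 0.298% of all genes, and 0 were negative (0.11%), with 1 (IRF9) at an unadjusted p under 0.05 and 0 by voom. The difference in IRF1 was not called without parental DMSO replicate 2, parental ruxolitinib replicate 1, parental ruxolitinib replicate 2, paclitaxel-resistant DMSO replicate 1, paclitaxel-resistant DMSO replicate 2 or paclitaxel-resistant ruxolitinib replicate 2. The fall of IRF1 in resistant cells was not called without paclitaxel-resistant DMSO replicate 1, paclitaxel-resistant DMSO replicate 2 or paclitaxel-resistant ruxolitinib replicate 1. In DMSO, both genes were lower in resistant than in parental cells, and with ruxolitinib alone both GBP1 libraries of the resistant line were above both of the parental line.

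Among the other falls in paclitaxel-resistant cells were RSAD2 (-0.91 ± 0.22), with 0.667 and 0.587 CPM in ruxolitinib, against 2.02 and 2.10 CPM in DMSO, IFI44L (-0.80 ± 0.15) and TRIM22 (-0.77 ± 0.14). Parental falls included IFIT3 (-1.07 ± 0.15), with 1.27 and 1.28 CPM in ruxolitinib, against 3.28 and 4.38 CPM in DMSO, GBP3 (-0.96 ± 0.10), IFITM2 (-0.89 ± 0.12), IFITM3 (-0.85 ± 0.13) and IFIT2 (-0.77 ± 0.14). The genes that rose were ISG20 (0.49 ± 0.14) and MX2 (0.41 ± 0.12) in resistant cells and OAS1 (0.37 ± 0.10) in parental cells. The calls of ISG20, MX2 and RSAD2 were lost without paclitaxel-resistant DMSO replicate 1, paclitaxel-resistant DMSO replicate 2, paclitaxel-resistant ruxolitinib replicate 1 or paclitaxel-resistant ruxolitinib replicate 2. The call of OAS1 was lost without parental DMSO replicate 1, parental ruxolitinib replicate 1 or parental ruxolitinib replicate 2. In neither line was any of the 5 genes of ISG15 conjugation called. At an unadjusted p under 0.05, 29 of the 45 genes were lower and 4 higher in resistant cells, and 27 were lower and 2 higher in parental cells. The resistant count of 20 calls in either direction was 9 without ruxolitinib replicate 1, 11 without ruxolitinib replicate 2, 12 without DMSO replicate 1 and 10 without DMSO replicate 2, and the parental count of 22 was 14 without ruxolitinib replicate 2. The immune, stromal and endothelial list summed to 16.0 to 17.5 CPM with ruxolitinib, against 18 to 18.4 CPM with DMSO, in resistant cells and to 20.6 to 20.8 CPM, against 24.9 to 27.3 CPM, in parental cells, and its part in the result was not tested.

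**Figure D5:**
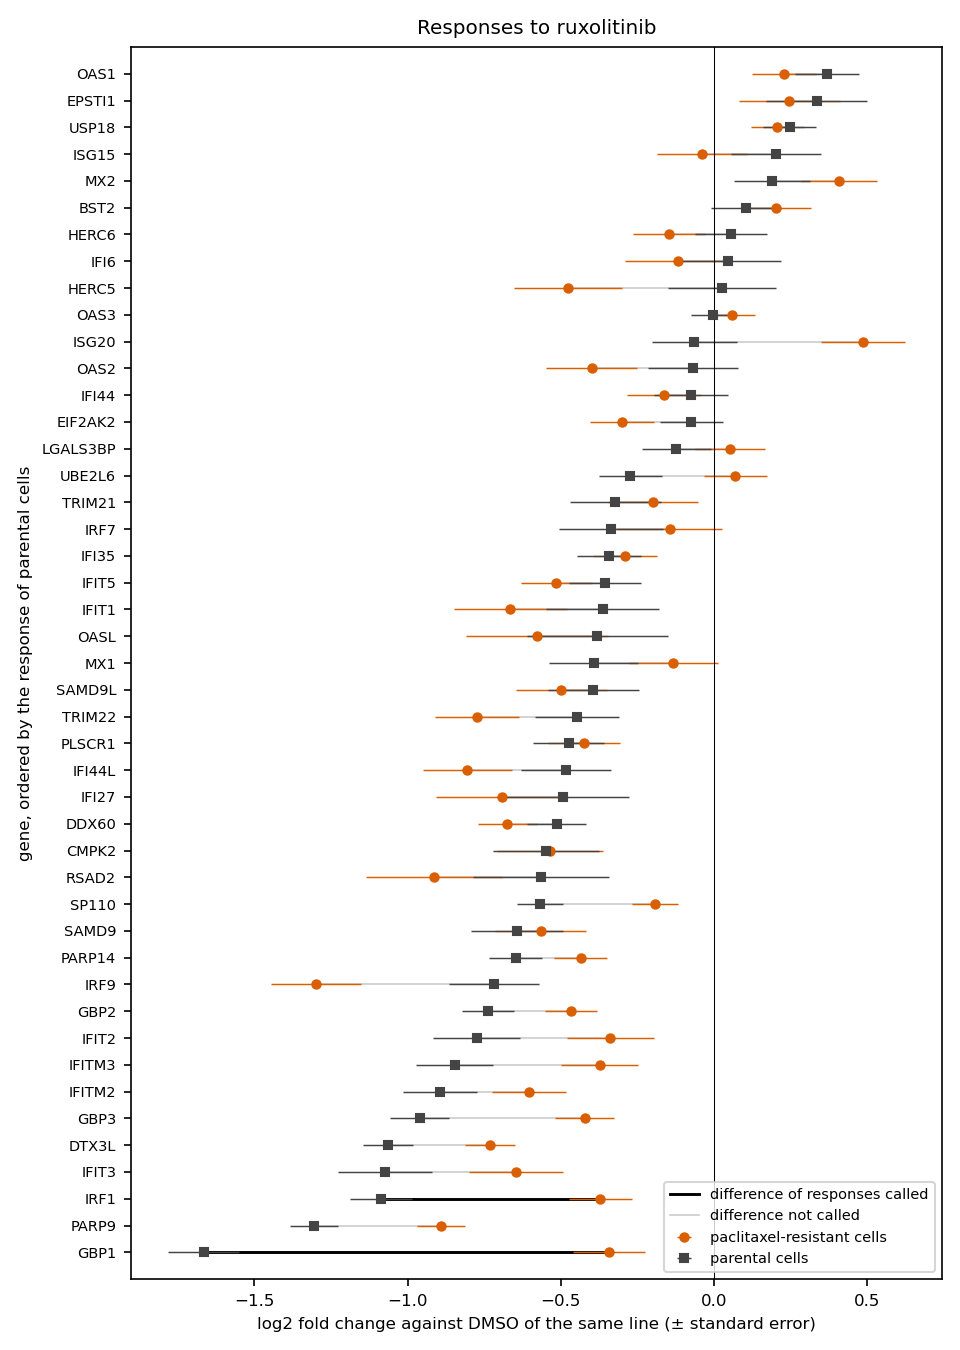
Log2 fold change (± standard error) with ruxolitinib against DMSO of the same line for 45 genes, in paclitaxel-resistant cells (circles) and parental cells (squares), with black lines where the difference of responses was called. GBP1 changed by -0.34 in resistant and -1.67 in parental cells, and IRF1 by -0.37 and -1.09.

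Ruxolitinib added to the lower paclitaxel dose lowered members of the list in both lines. The 2 lines had 13 falls in common, a description only, since shared falls were not counted over all tested genes. In paclitaxel-resistant cells 17 of the 45 fell and 0 rose against 6.5 nM paclitaxel alone (2.12% of all genes down and 1.16% up, median -0.41), with 0 higher at an unadjusted p under 0.05 and 0 by voom. In parental cells 22 fell and 0 rose against 2.5 nM paclitaxel alone (12.9% and 15.1%, median -0.37), with 2 higher at an unadjusted p under 0.05 (OAS1 and USP18) and 0 by voom. IRF9 had 5.95 and 6.07 CPM in paclitaxel-resistant cells with both drugs, against 12.0 and 17.0 CPM with 6.5 nM paclitaxel alone (log2 fold change -1.12 ± 0.15, adjusted p = 4.65e-05). In parental cells it had 5.46 and 5.68 CPM in both drugs, against 12.7 and 13.1 CPM in 2.5 nM paclitaxel (log2 fold change -1.08 ± 0.15, adjusted p = 2.11e-05). ISG15 fell in resistant cells (log2 fold change -0.77 ± 0.15, adjusted p = 0.00272), with 1.26 and 1.30 CPM in both drugs, against 2.43 and 3.41 CPM in 6.5 nM paclitaxel, while its log2 of -0.13 ± 0.15 in parental cells was not called. IRF1 had 27.3 and 33.4 CPM in parental cells with both drugs, against 61.7 and 62.5 CPM with 2.5 nM paclitaxel alone (log2 fold change -1.02 ± 0.10, adjusted p = 3.05e-07). IRF9 and IRF1 values of the combination were below those of paclitaxel alone without overlap. The count in resistant cells was 9 without paclitaxel replicate 1, 6 without paclitaxel replicate 2, 8 without combination replicate 1 and 6 without combination replicate 2. The call of ISG15 was lost without paclitaxel-resistant 6.5 nM paclitaxel replicate 2. 

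Other genes of the pathway fell with ruxolitinib as well. SOCS3, a STAT-induced feedback inhibitor, had 0.572 and 0.483 CPM in paclitaxel-resistant cells with ruxolitinib, against 2.40 and 3.48 CPM with DMSO (log2 fold change -1.35 ± 0.18, adjusted p = 1.75e-05). Parental cells had 0.823 and 0.713 CPM in ruxolitinib, against 6.64 and 8.32 CPM in DMSO (log2 fold change -2.25 ± 0.18, adjusted p = 2.81e-09). IFI16, a nuclear DNA sensor, changed by -0.78 ± 0.11 in resistant and -1.54 ± 0.11 in parental cells, a difference of responses of 0.77 ± 0.16 (adjusted p = 0.0216). Of 13 antigen presentation genes, 1 fell in resistant cells (PSMB10, -0.46 ± 0.13) and 10 fell in parental cells (4.06% and 7.71% of all genes), among them PSMB10 (-0.95 ± 0.13), NLRC5 (-0.79 ± 0.12) and PSMB9 (-0.75 ± 0.13). For none of the 13 was the difference between the lines called. The combination gave 1 fall in resistant cells and 12 in parental cells, beside 2.12% and 12.9% of all genes down.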

How the data were processed

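RNA of 30 libraries was analysed from 1 deposited table. Reads were aligned to GRCh37 (hg19) with STAR 2.5.1b, and edgeR was used, per the submitters' processing notes; which counter was used, and whether by strand, is not given. The deposited values are log2(CPM + 1) made by the authors, with CPM scaled by TMM factors as the table's name says. Low values of each library are whole multiples of 1 step (100% within 0.01), which gave the reads per library; floors of 3 reads cover counting error only.

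Genes at 1 CPM or more in at least 2 libraries (12743 of 20114) were fitted with limma 3.58.1 (R 4.3.3) on the deposited values, with 15 group means, trended and robust variances, two-sided tests and Benjamini-Hochberg adjustment within each comparison, at 0.05. The pooled fit had 15 residual degrees of freedom for 2 libraries per group. Differences of responses were contrasts of the same fit. Summaries used Python 3.11.15, pandas 2.3.3 and numpy 2.4.6. The fit was tested on simulated data. Other settings tried were median-of-ratios scaling, a replicate block, a fit of the compared lines only, a pseudocount of 0.25 CPM, no filter, an adjustment for transcript GC and length with and without the block, voom on the recovered reads, and each library left out. The members and lists were chosen with earlier results of these data known. Genes with values in single libraries were, in each comparison, taken from those with the largest fold changes among called genes whose groups did not overlap; others are given by fold change, and SAMD9, SOCS3 and MB21D1 values were added after they were seen.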

Additional observations from a re-analysis of the deposited data

Results flagged for a closer look

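These 40 results are tested differences between the responses of a resistant and the parental line, each past an adjusted p of 0.05 in limma. Each value is a difference of log2 fold changes, resistant minus parental, and no explanation was tested.

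At 1 µM doxorubicin, doxorubicin-resistant minus parental, the sensors and binders of viral RNA differed by 1.94 for OAS1, 0.88 for OAS3, -1.17 for OASL, -0.91 for DDX60, -0.76 for IFIT1, -0.98 for IFIT2, -0.75 for IFIT3 and -0.67 for IFIT5. The transcription factors IRF1 and IRF7 differed by -0.66 and -1.40. In ISG15 conjugation, ISG15 differed by -2.00, HERC5 by -1.36, HERC6 by -1.22 and USP18 by 0.38. GTPases and membrane proteins differed by -0.46 for GBP1, 0.64 for GBP2 and 1.42 for IFITM2, and ISG20 differed by -0.94, IFI6 by -2.26 and IFI27 by -1.77. The remaining differences were -0.82 for PARP14, -1.22 for TRIM21, 0.51 for TRIM22, 0.64 for SP110, 1.38 for SAMD9L, -0.63 for IFI35, 1.12 for IFI44, 1.35 for IFI44L and 0.86 for LGALS3BP.

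At 10 nM paclitaxel, paclitaxel-resistant minus parental, the differences were -0.67 for IRF9, -0.80 for OAS2, -1.49 for OASL, -0.68 for DDX60, -1.02 for IFIT1, -0.82 for IFIT2, -0.78 for ISG15, -1.20 for RSAD2 and 0.59 for GBP1. With ruxolitinib, they were 0.72 for IRF1 and 1.32 for GBP1.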

How the results depend on the processing

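Of 334 called values among 810 (45 genes in 18 comparisons), 272 kept their call under every alternative fitted for them that leaves out no library. There were 9 such alternatives, and 1 of them, the crossed pairing described below, was fitted for some comparisons only. A total of 139 called values were lost without some library. A total of 4 values reversed, all at 1 µM doxorubicin in parental cells after the GC and length correction: OAS3 at 0.038 and IFITM3 at -0.16, each with and without the replicate block. Calls of GBP1, OASL and TRIM22 in the doxorubicin difference were lost with a pseudocount of 0.25 CPM or voom. With the correction, the calls were 18 for 350 nM doxorubicin in resistant cells (11 without it), 17 for 10 nM paclitaxel in resistant cells (9), 26 for the combination in resistant cells (17), 19 and 8 for the paclitaxel and ruxolitinib differences (9 and 2) and 2 for 6.5 nM paclitaxel (0). Adding the replicate block to the correction gave 18, 17, 27, 19, 8 and 1. Fitting only the lines compared gave 13 calls for 2.5 nM paclitaxel in parental cells (23), 2 for 6.5 nM paclitaxel and 27 for the combination in resistant cells. For 350 nM doxorubicin, no filter gave 5 calls and the replicate block 7; the block moved no other count of calls by over 1.5 times. The cause was not tested for any of these.

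Replicate numbers gave no sign of pairing, since the correlation of same-numbered deviations over 105 pairs of groups ran from -0.689 to 0.65 with a median of 0.00164. A crossed pairing, chosen after seeing the data, gave 2 up and 15 down for doxorubicin-resistant cells, 21 and 10 for 10 nM paclitaxel and 27 and 12 for 1 µM doxorubicin in parental cells.

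Without 1 library, the lone library of a group was assumed to vary like the other groups. Calls then ran from 12 to 16 for doxorubicin-resistant against parental cells, 20 to 22 for paclitaxel-resistant against parental and 14 to 17 for the resistant lines. In parental cells they ran from 7 to 24 and 24 to 27 for paclitaxel, 3 to 19 and 35 to 39 for doxorubicin, 14 to 19 for ruxolitinib and 15 to 21 for the combination. In resistant cells they ran from 0 to 5 and 21 to 26 for doxorubicin, 0 to 0 and 6 to 8 for paclitaxel, 9 to 12 for ruxolitinib and 6 to 9 for the combination. The differences gave 26 to 32 for doxorubicin, 4 to 11 for paclitaxel and 1 to 2 for ruxolitinib. Precision was limited by 2 libraries per group and, for EPSTI1, MX2, HERC5, IRF7, OASL and TRIM22, by levels under 1 CPM in at least 15 of the 30 libraries.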
